A study of Mus musculus with 8 samples.

Results

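Livers heterozygous for mutant p53 (LP245/+, 3 mice) were compared with control livers (LP+/+, 3 mice). Members were assigned by the genotype in the sample labels, which took 6 of the 8 livers sequenced. RNA of whole liver was measured after 3 months on a high-fat, choline-deficient diet (HFCD) started at 21 days of age, a diet that loads the liver with fat. The study asked how p53R245W changes the premalignant liver under this metabolic challenge. The study describes the animals on this diet as age-matched males.

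The LP245/+ livers are labelled Alb-CreTG, Trp53wm-R245W/+. The wm allele makes wild-type p53 until Cre recombines it, after which it makes p53R245W beside the p53 of the remaining wild-type allele. Alb-Cre acts in hepatocytes and cholangiocytes, so macrophages, endothelial cells and stellate cells of these livers keep the unrecombined allele. The 3 LP+/+ livers carry no Cre by their labels, whereas the paper defines LP+/+ as wild type for Trp53 with the Alb-Cre transgene. The paper's methods name littermates with or without Cre as controls. LP+/+ replicates 1 and 2 are labelled Alb-Cre0, Trp53fl/+ and LP+/+ replicate 3 is labelled Alb-Cre0, Trp53wm-R245W/+. The Cre transgene itself therefore differs between the genotypes, and its part cannot be told apart from that of the mutation. The labels do not say whether animals were littermates, at which hour they were killed or whether they were fasted.

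p53 is a transcription factor that responds to DNA damage and metabolic stress, and the R245W change lies in its DNA-binding domain. In the liver, hepatocytes make most plasma proteins, run gluconeogenesis, lipid and bile acid synthesis and detoxification, and many of these genes follow the circadian clock or the sex-specific pulses of growth hormone. Kupffer cells, the resident macrophages, and lymphocytes contribute the immune transcripts of a whole-liver sample.

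Each liver gave between 26304526 and 31370714 counts over 49585 genes. Values per liver are given below as normalized counts, which are counts divided by DESeq2 size factors, in the order LP+/+ replicates 1, 2 and 3 and then LP245/+ replicates 1, 2 and 3. The library numbers fall into 2 series, over which the genotypes are unevenly spread, and several results below changed with this split. The first series holds the 3 LP245/+ livers and LP+/+ replicates 2 and 3. LP+/+ replicate 1 was numbered with the LPfl/+ livers (1 floxed Trp53 allele with Cre) in the second. The main axis of variation over the 8 livers, with 31.1% of the variance, placed the second series at 26.7 to 42.6 and the first at -28.2 to -15.1. LP+/+ replicate 1 lay more than 2-fold outside the range of the other 5 livers for 241 genes (after adding 5 to each normalized count), against 7 to 44 genes for each of the others. Mitochondrial transcripts took 7.57% to 9.70% of the counts in LP245/+ and 5.88% to 6.90% in LP+/+. Hepatocyte markers were present in all 6 livers, with Alb at 2150500 to 3321180 normalized counts. The replicates are given as separate livers, no pair of which agreed within sampling noise, and p-values measure the spread between these livers only.

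Trp53 mRNA was measured first, as the targeted gene. It stood at 226, 258 and 202 normalized counts in LP+/+ and 316, 294 and 193 in LP245/+, so that the log2 fold change was 0.24, with a standard error of 0.21 and an adjusted p of 0.883. The groups overlapped, and the counts do not separate mutant from wild-type transcripts.

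A gene was called when its absolute log2 fold change was at least 1 and its adjusted p at most 0.05 in edgeR's quasi-likelihood test. Of 16496 genes tested, 1 was called (0.00606%), Cdkn1a, the cell cycle inhibitor p21 and a direct p53 target. It had 188, 138 and 184 normalized counts in LP+/+ and 14.5, 25.3 and 27.5 in LP245/+ and fell by 2.91 on the log2 scale, with a standard error of 0.27 and an adjusted p of 0.0155. Without LP245/+ replicate 2 the log2 fold change of Cdkn1a was -3.00 and its adjusted p 0.203, and without LP+/+ replicate 3 they were -2.85 and 0.103. An unadjusted p below 0.05 was reached by 586 genes higher in LP245/+ (3.55%) and 392 genes lower (2.38%). All 3 LP245/+ livers lay above all 3 LP+/+ livers for 994 genes (6.03%), and all below for 955 (5.79%).

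Within the first library series, 7 of 15939 genes were called (0.0439%). Cdkn1a and Eda2r, a TNF receptor family member and p53 target, fell. Eda2r had 18.4, 60.5 and 41.4 normalized counts in LP+/+ and 7.23, 8.08 and 6.11 in LP245/+. The other members of this set were the hepatic genes Gsta2, Cyp2a22 and Gm42047, which fell, and Mup14 and Serpina1e, which rose. Gm42047 is a long intergenic RNA gene at chr8:121833247-121841178 (GRCm38, plus strand), inside another annotated locus, Gm20388, on the same strand. Its normalized counts were 342, 1278 and 958 in LP+/+ and 57.9, 80.8 and 58.0 in LP245/+, so that the groups did not overlap. The log2 fold change was -4.09 in the first series (adjusted p = 3.02e-05) and -3.70 over all livers (standard error 0.44, adjusted p = 0.0693). With DESeq2 in place of edgeR, 10 of 18881 genes were called (0.0530%), of which Hspa1b, Emp1, Cd1d2 and Rps3a3 rose and Cdkn1a, Eda2r, Gm42047, Gucy2c, Grm8 and C1rb fell.

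**Figure D1:**
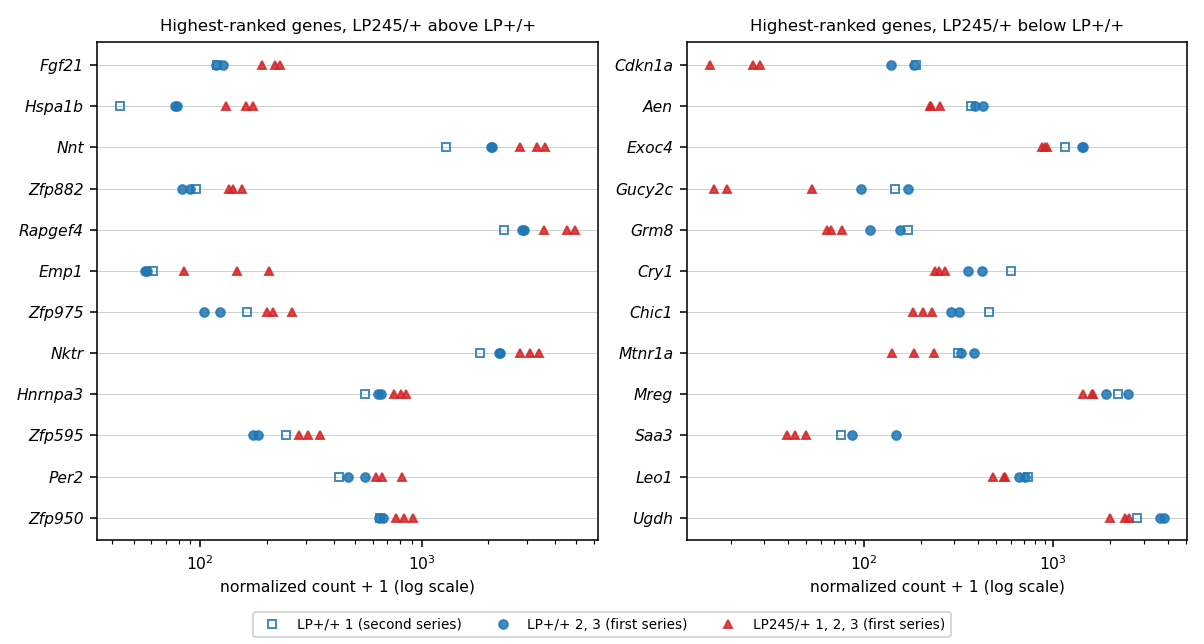
Normalized count plus 1 (log axis) in each of the 6 livers for the 12 protein-coding genes with the smallest p among those whose LP245/+ livers all lie above (left) or all below (right) the LP+/+ livers. Red triangles are LP245/+, blue circles LP+/+ replicates 2 and 3, and open squares LP+/+ replicate 1, which was numbered in the second library series. For Cdkn1a the LP245/+ livers sit between 14.5 and 27.5 and the LP+/+ livers between 138 and 188, the widest gap in the plot relative to level.

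Among protein-coding genes with a mean of at least 50 normalized counts whose genotypes did not overlap, the 12 with the smallest p in each direction are plotted by liver. Except for Cdkn1a and Aen, each of them had an adjusted p of 0.795 with edgeR. Fgf21, a hormone that hepatocytes secrete under nutrient stress, led the genes above. It was even in LP+/+, at 118, 117 and 126 normalized counts, and higher in LP245/+, at 227, 190 and 217, with a log2 fold change of 0.82 (standard error 0.15) over all livers and 0.80 in the first series. Hspa1b, an inducible HSP70 chaperone, had 42.5, 75.9 and 77.2 in LP+/+ and 160, 172 and 130 in LP245/+. Its log2 fold change was 1.25 (standard error 0.26), and it was called by DESeq2 (adjusted p = 0.0233). Other HSP70 system genes, named after their values were seen, were Dnajb1 with a log2 fold change of 0.43 and Hsph1 with 0.25, both without overlap, for Dnajb1 by a narrow margin. The list of 26 heat shock chaperones as a whole was split, 13 higher and 13 lower, with a median of 0.02.

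Nnt, the mitochondrial transhydrogenase that makes NADPH, was at 1292, 2060 and 2085 normalized counts in LP+/+ and 2774, 3607 and 3316 in LP245/+, a log2 fold change of 0.85. Rapgef4, a cyclic AMP sensor also known as Epac2, had a log2 fold change of 0.70, and opposite-strand genes overlap it. Emp1, an epithelial membrane protein, was at 59.9, 56.7 and 55.5 in LP+/+ and 83.7, 145 and 203 in LP245/+. It was called by DESeq2 (adjusted p = 0.0379), and its spread within LP245/+ was wide. Of the remaining genes above, 4 encode zinc finger proteins (Zfp882, Zfp975, Zfp595 and Zfp950, log2 fold changes 0.36 to 0.80), Hnrnpa3 and Nktr encode an RNA-binding protein and a cyclophilin-related protein, and Per2 belongs to the clock.

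Below the LP+/+ livers, Aen, a p53-induced nuclease, had a log2 fold change of -0.73 (adjusted p = 0.569). Gucy2c, the receptor for guanylin peptides, had 145, 171 and 96.0 normalized counts in LP+/+ and 52.7, 18.2 and 15.3 in LP245/+, and Grm8, a metabotropic glutamate receptor, had 171, 108 and 155 against 76.5, 66.7 and 63.1. DESeq2 called both, with adjusted p = 3.18e-05 and 0.0266. Neither overlapped between genotypes, and within LP245/+ replicate 1 had the most Gucy2c. Exoc4, part of the exocyst complex, was lower by a log2 fold change of -0.55 with little spread, at 1149, 1409 and 1427 in LP+/+ and 869, 904 and 927 in LP245/+. Mtnr1a, the melatonin receptor, was at 315, 324 and 380 against 141, 233 and 184. Ugdh, which makes UDP-glucuronic acid for conjugation, had a log2 fold change of -0.57, and Saa3, Mreg, Leo1, Chic1 and Cry1 completed the set at -0.39 to -1.23.

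**Figure D2:**
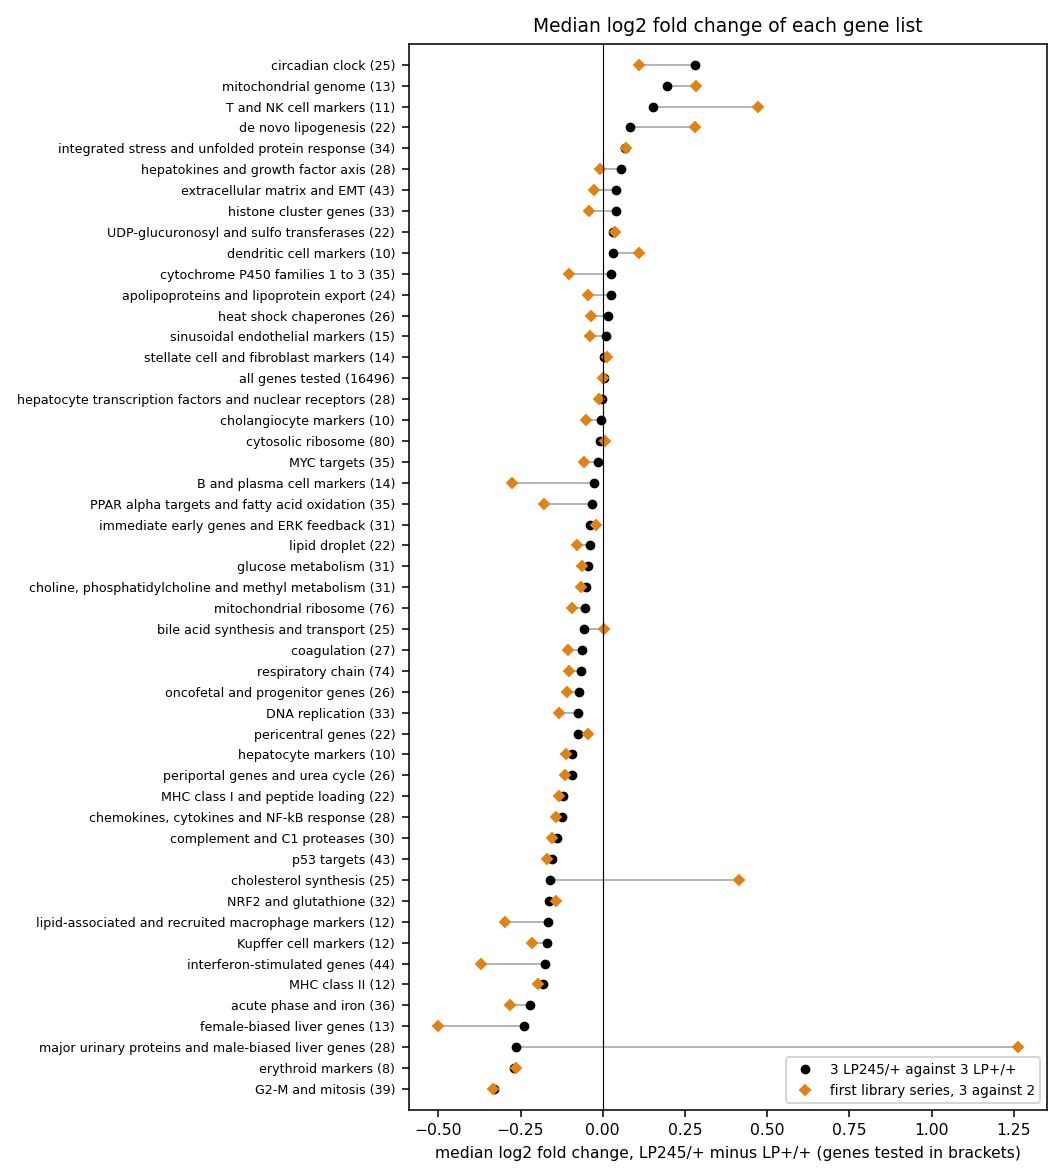
Median log2 fold change (LP245/+ minus LP+/+, x axis) of each gene list with at least 8 genes tested, with the number of genes tested in brackets. Black circles are the fit with all livers and orange diamonds the fit within the first library series; the circles run from -0.33 (G2-M) to 0.28 (circadian clock), and the male-biased and cholesterol lists change sign between the fits.

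The 52 gene lists were described by their counts and medians, beside a median of 0.00 over all 16496 genes tested. Of the lists with at least 8 genes tested, the clock had the highest median and G2-M the lowest.

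The circadian clock is a loop in which ARNTL (BMAL1) and CLOCK bind E-boxes and switch on Per, Cry and Nr1d genes, whose products then repress ARNTL and its targets. Members differed in both directions. Of 25 clock genes, 5 lay above in all LP245/+ livers and 5 below, against 6.03% and 5.79% of all genes. An unadjusted p below 0.05 with edgeR was reached by 9 higher and 4 lower genes, against 3.55% and 2.38% of all genes. Arntl had 1073, 538 and 659 normalized counts in LP+/+ and 236, 497 and 355 in LP245/+, which gave -1.05 on the log2 scale, with a standard error of 0.29 and an adjusted p of 0.795. All LP245/+ livers were below all LP+/+ livers. Without LP+/+ replicate 1 the log2 fold change was -0.72. Cry1, a repressor of the loop, was at 600, 353 and 422 against 238, 269 and 249. Npas2, the CLOCK paralog, had the lowest log2 fold change of the list at -1.69, but its groups overlapped. The D-box repressor Nfil3, named after its values were seen, was also below in all 3 livers, at a log2 fold change of -0.42.

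Other members were higher. Dbp, an activator that binds D-boxes in clock output genes, had 23.2, 221 and 102 normalized counts in LP+/+ and 667, 267 and 530 in LP245/+. Its log2 fold change was 2.09 (standard error 0.59) over all livers and 1.60 in the first series. The groups did not overlap, and LP+/+ replicate 1 was the lowest liver by far. Nr1d1 (REV-ERBα), the repressor of Arntl, had 148, 902 and 722 against 1764, 1156 and 1025, and Per2 had 423, 555 and 464 against 810, 658 and 619. Nr1d2, the related repressor, and the deubiquitinase Usp2 were likewise above in every liver. Per3, Tef, Wee1 and Bhlhe41 had log2 fold changes of 0.63 to 1.59 with overlapping livers. Within LP245/+, replicate 2 had the least Dbp and the most Arntl, while replicate 3 had the least Nr1d1 and Per2. In the first series the list's median was 0.11, and 5 genes lay above and 5 below (background 11.6% above and 12% below for 3 against 2 livers). The hour of collection is not given, and its part was not tested.

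Promoter sequences of clock genes are shown to place these values beside the elements through which the loop is known to act. RefSeq promoters (GRCm38.p6, 250 bases before to 50 after each start) were given for 20 of the 25 clock genes, and 6 of them (30%) held the E-box CACGTG, compared with 8.09% of 27025 genes with a promoter. The E-box reads the same on both strands. The D-box TTANGTAA, searched on both strands, was in 1 of the 20, Per3, and in 2.72% of all. Ciart, a clock repressor, held 3 E-boxes at -116, -58 and -44, Cry1 held 1 at -60, and Per3 held D-boxes at -205 and -158, counted from the start of transcription. A match describes the letters only. Capitals mark the motif, and each line reads 5′ to 3′ on the gene's own strand (minus in all 3).
Ciart, chr3:95882254-95882358, E-boxes in capitals: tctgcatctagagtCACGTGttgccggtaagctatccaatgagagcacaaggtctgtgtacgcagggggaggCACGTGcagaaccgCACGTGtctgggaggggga
Cry1, chr10:85185065-85185144, E-box in capitals: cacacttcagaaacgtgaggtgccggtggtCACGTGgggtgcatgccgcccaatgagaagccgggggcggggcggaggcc
Per3, chr4:151044726-151044875, D-boxes in capitals: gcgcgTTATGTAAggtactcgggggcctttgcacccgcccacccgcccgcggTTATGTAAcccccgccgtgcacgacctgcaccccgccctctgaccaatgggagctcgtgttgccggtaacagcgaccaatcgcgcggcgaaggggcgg

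In the livers, Cry1 with its E-box was lower in LP245/+, while Ciart, at 12.6, 62.4 and 11.3 in LP+/+ and 104, 34.4 and 67.2 in LP245/+, had a log2 fold change of 1.26 with overlapping groups. Genes with the same element thus differed in direction.

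**Figure D3:**
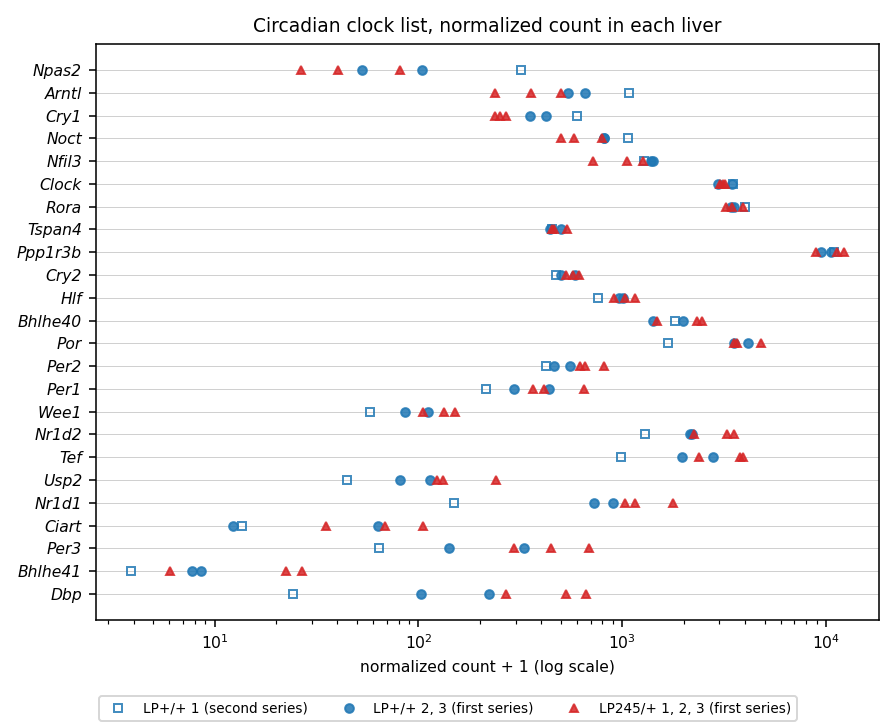
Normalized count plus 1 (log axis) of clock list genes in each liver, ordered from the lowest log2 fold change (top) to the highest (bottom). Arntl and Cry1 lie to the left in all LP245/+ livers (red triangles), Dbp and Nr1d1 to the right, and LP+/+ replicate 1 (open squares) is the LP+/+ liver farthest from LP245/+ for Arntl, Cry1, Dbp and Nr1d1.

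Cell cycle genes were lower. Of 39 G2-M and mitosis genes, 34 had a log2 fold change below 0, 9 lay below in all LP245/+ livers (5.79% of all genes) and 0 above (6.03%), and the median was -0.33 in both fits. These are genes of low level in this tissue. Mki67, the proliferation antigen Ki-67, had 230, 268 and 261 normalized counts in LP+/+ and 172, 182 and 185 in LP245/+, which gave -0.48 on the log2 scale, with a standard error of 0.13 and an adjusted p of 0.795. The spread within each genotype was smaller than the gap between them. The spindle checkpoint kinase Ttk, named after its values were seen, had 15.5, 17.3 and 16.9 against 7.23, 6.06 and 5.09. Cdc20, the activator of the anaphase-promoting complex, had the lowest log2 fold change of the more abundant members at -0.90, against -0.28 in the first series, and Aurka, a mitotic kinase, had the highest at 0.17. The median over the list was -0.13 without LP245/+ replicate 1, the liver with the lowest level of these genes, and -0.26 to -0.46 without any other liver.

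The 33 DNA replication genes tested showed less, with a median of -0.07, Pcna at 0.01 and E2f2, an E2F activator, at -0.65. The 35 MYC targets had a median of -0.02 and 0 genes without overlap, and Myc itself was low, at 68.6, 28.8 and 34.8 against 23.8, 40.4 and 22.4 normalized counts. Of 33 histone cluster genes, 4 lay below (5.79% of all genes) and 1 above (6.03%). The linker histone Hist1h1c, whose transcript is also polyadenylated, was at 1641, 1150 and 1147 in LP+/+ and 705, 1103 and 805 in LP245/+, a log2 fold change of -0.58.

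Acute phase genes, which hepatocytes switch on in response to IL-6 and other cytokines, were mostly lower by sign. Of 36 acute phase and iron genes, 27 had a log2 fold change below 0, with a median of -0.22 over all livers and -0.28 in the first series. With an unadjusted p below 0.05 in edgeR, 9 were lower and 0 higher, against 2.38% and 3.55% of all genes. In all LP245/+ livers 7 lay below and 0 above, against 5.79% and 6.03% of all genes. The level of the list in a liver was taken as the median over its genes of log2(normalized count + 1) minus the mean of the 6 livers. It was -0.07, 0.33 and 0.03 in LP+/+ and -0.25, -0.00 and -0.08 in LP245/+. LP+/+ replicate 2 stood highest, and LP+/+ replicate 1 lay below LP245/+ replicate 2. Saa3, an inducible serum amyloid A, had 75.4, 147 and 85.6 normalized counts in LP+/+ and 42.4, 48.5 and 38.7 in LP245/+. Its log2 fold change was -1.23 (standard error 0.29, adjusted p = 0.795). Saa1 was at 707, 941 and 404 against 385, 466 and 403, so that the groups overlapped at LP+/+ replicate 3. The acute phase carriers Orm1 and Orm2 and the protease inhibitor Serpina3n, named after their values were seen, had log2 fold changes of -0.41, -1.22 and -0.37 without overlap. Hfe and Hfe2 (hemojuvelin), which set hepcidin and so iron export, were below at -0.29 and -0.39. Bmp6, their upstream ligand from endothelial cells, had the highest log2 fold change of the list, 0.23.

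Complement genes went the same way by smaller amounts, with 25 of 30 genes below 0, 7 below in all LP245/+ livers (5.79% of all genes) and a median of -0.14. For C1qa, C1qb, C1ra, C8g and Masp2 the log2 fold changes were -0.12 to -0.21. C1rb and C1s2 had the lowest values, -3.01 and -2.15, and are taken up below because 2 livers decided them. Of 27 coagulation genes 21 were below 0, with a median of -0.06 and F12 lowest at -0.23.

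Interferon-stimulated genes were lower by sign in 43 of 44, with a median of -0.18, and in 44 of 44 with a median of -0.37 in the first series. None lay outside the range of the other genotype over 3 against 3 livers (6.03% of all genes above and 5.79% below). In 3 against 2 livers 13 lay below (12% of all genes). Isg15, a ubiquitin-like antiviral protein, had 91.8, 215 and 125 normalized counts in LP+/+ and 70.3, 100 and 92.7 in LP245/+, which gave -0.70 on the log2 scale, with a standard error of 0.31 and an adjusted p of 0.831. By the same measure of list level, LP+/+ replicate 2 stood highest at 0.62, the other LP+/+ livers were at -0.28 and -0.01, and LP245/+ was at -0.23, 0.07 and -0.12. Without LP+/+ replicate 2 the median log2 fold change of the list was 0.06, so 1 control liver set the direction.

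The list was written from a known regulon, and a match in its promoters describes the letters only. The core of the interferon-stimulated response element, GAAANNGAAA on either strand, was in 20 of 33 list promoters (60.6%) and in 3.99% of all. The stretches before the starts of Isg15 and Rsad2 (viperin), both on the minus strand, carry it in capitals. In Isg15 the matches at -78, -72 and -66 overlap, and Rsad2 holds the reverse strand form at -120.
Isg15, chr4:156200819-156200928: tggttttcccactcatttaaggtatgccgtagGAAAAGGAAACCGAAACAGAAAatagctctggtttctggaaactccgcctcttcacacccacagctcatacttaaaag
Rsad2, chr12:26456473-26456582: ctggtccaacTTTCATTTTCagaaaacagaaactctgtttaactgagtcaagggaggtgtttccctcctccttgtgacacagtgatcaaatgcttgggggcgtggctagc

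Rsad2 itself had 232, 559 and 328 normalized counts in LP+/+ and 211, 363 and 302 in LP245/+.

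MHC class II genes had a median of -0.18, with H2-Ab1 at -0.08, and MHC class I and peptide loading genes a median of -0.12, with H2-K1 at -0.20. Of the chemokine, cytokine and NF-kB list, 28 of 38 genes passed the filter, and 19 of them were below 0 (median -0.12). The interleukin gene Il1b was lowest at -0.78, with LP+/+ replicate 1 at 138 normalized counts and the other livers between 43.4 and 64.0. The chemokine gene Ccl9 was highest at 0.72, at 1240, 855 and 1605 in LP+/+ and 2476, 1416 and 2161 in LP245/+.

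Glucose and lipid genes differed for single members more than for whole lists. G6pc, the last enzyme of gluconeogenesis, had 32735, 12442 and 17367 normalized counts in LP+/+ and 8859, 12353 and 8775 in LP245/+, a log2 fold change of -1.05 over all livers and -0.58 in the first series. The highest LP245/+ liver lay just under the lowest LP+/+ liver. Pfkfb3, which makes the glycolytic activator fructose 2,6-bisphosphate, was at 221, 173 and 301 against 500, 282 and 456, and the glycolytic enzyme gene Pfkl was lower at -0.25, both named after their values were seen. The 31 genes of the list had a median of -0.04.

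For lipogenesis, Thrsp (Spot 14), a lipogenic regulator, had 6877, 7118 and 3706 normalized counts in LP+/+ and 11820, 7531 and 13772 in LP245/+, a log2 fold change of 0.91 (standard error 0.27). It was the 1 member of 22 without overlap over all 6 livers, while 6.03% of all genes lay above and 5.79% below. Fasn, the fatty acid synthase, was at 38741, 21341 and 17042 against 43783, 38994 and 22252. The median was 0.08 over all livers and 0.28 in the first series, where 8 of 22 lay above (11.6% of all genes). The PPARα targets had medians of -0.03 and -0.18. Cyp4a14, a fatty acid hydroxylase, spread from 118 in LP+/+ replicate 1 to 16177 in replicate 3, with LP245/+ at 5535, 7736 and 4975. Lipid droplet genes had a median of -0.04, with Plin2 at -0.19 and Cd36 at -0.44.

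The choline and methyl group genes matter on a choline-deficient diet, and betaine and glycine are both sources of methyl groups. Bhmt, which transfers the methyl group of betaine to homocysteine, had 81314, 63666 and 66135 normalized counts in LP+/+ and 55476, 45523 and 49508 in LP245/+, a log2 fold change of -0.48. The glycine decarboxylase gene Gldc was at 9997, 10958 and 10731 against 5867, 8434 and 6987, a log2 fold change of -0.56. Neither overlapped, and both were named after their values were seen. Pemt, which makes phosphatidylcholine by methylation, was at -0.08, and the median of the 31 genes was -0.05.

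In bile acid synthesis, Cyp8b1, the sterol hydroxylase that makes cholic acid, had 13794, 8698 and 8026 normalized counts in LP+/+ and 4709, 6631 and 5169 in LP245/+. Its log2 fold change was -0.88 (standard error 0.22) and -0.60 in the first series. No other member of the 25 was without overlap, while 6.03% of all genes lay above and 5.79% below. Cyp7a1, the rate-limiting enzyme, spread widely within both genotypes, from 1229 to 5924.

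Glutathione and NRF2 target genes were mostly lower, with 26 of 32 below 0, a median of -0.16, and 3 below and 1 above in all LP245/+ livers (5.79% and 6.03% of all genes). In the first series 15 of 32 lay below, against 12% of all genes. The level of the list overlapped between genotypes, at -0.12, 0.14 and 0.17 in LP+/+ and -0.16, -0.06 and -0.04 in LP245/+. Gsta2, a glutathione transferase called in the first series, had 151, 708 and 599 normalized counts in LP+/+ and 252, 292 and 235 in LP245/+. It fell by 1.33 on the log2 scale in the first series (adjusted p = 0.0130), but LP+/+ replicate 1 lay under all LP245/+ livers, and the value over all livers was -0.89 (adjusted p = 0.831). The transferase Gstm3 and the glutathione synthesis enzyme Gclc, named after their values were seen, did not overlap at -0.67 and -0.42. Nqo1, a standard NRF2 target, was at -0.41.

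Besides Fgf21, the hepatokine and growth factor list held 3 more genes above in all livers, which made 4 of 28 (6.03% of all genes), and 1 below (5.79%), Hgfac, the HGF activator, at a log2 fold change of -0.28. Egfr, the EGF receptor, had 23645, 10861 and 11142 normalized counts in LP+/+ and 37663, 25119 and 24827 in LP245/+, a log2 fold change of 0.95 (standard error 0.31) over all livers and 1.41 in the first series. The lowest LP245/+ liver was only slightly above LP+/+ replicate 1. The leptin receptor gene Lepr was at 134, 145 and 159 against 219, 189 and 233, and Igf1 had a log2 fold change of 0.23. Igfbp1 was lowest at -0.99 with overlap. Integrated stress and unfolded protein response genes had a median of 0.07, with Atf4 at -0.09 and Gdf15 at -0.68.

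The remaining hepatocyte lists had medians close to 0. Beside their counts without overlap, 6.03% of all genes lay above in all LP245/+ livers and 5.79% below. Pericentral genes stood at -0.07 (1 of 22 above, 1 below), periportal and urea cycle genes at -0.09 (0 above and 1 below of 26, with 21 below 0), cytochrome P450 families at 0.02 (0 above and 1 below of 35), UDP-glucuronosyl and sulfo transferases at 0.03 (2 above and 2 below of 22) and apolipoproteins at 0.02 (0 of 24 without overlap). Hepatocyte transcription factors and nuclear receptors were at -0.00 (0 of 28 without overlap), and immediate early and ERK feedback genes at -0.04 (0 above and 1 below of 31).

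Several genes at the low end of their lists owed their value to LP+/+ replicate 1. Tff3, a trefoil peptide on the cholangiocyte and oncofetal lists, had 636, 5.76 and 10.4 normalized counts in LP+/+ and 42.4, 12.1 and 28.5 in LP245/+, with a log2 fold change of -2.96 over all livers and 1.76 in the first series. The stress gene Gadd45g was at 495, 65.3 and 98.8 against 65.1, 46.5 and 79.4, and the nuclear receptor gene Ppard was at 293, 79.7 and 62.1 against 68.2, 85.9 and 60.1. In each of them the control livers of the first series were near LP245/+ or on its other side. Fabp5, a fatty acid binding protein on the macrophage list, was at 719 in the same liver and between 72.7 and 188 in the others, and Apoa4, an apolipoprotein, was at 17518 against 2910 to 5883. Dnajb9, a chaperone of the endoplasmic reticulum, had 1002, 2240 and 1372 against 2652, 2475 and 2816 and did not overlap, with LP+/+ replicate 1 the lowest liver.

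Male-biased and female-biased liver genes, which follow the pattern of growth hormone secretion, were decided by the control livers. LP+/+ replicates 2 and 3 had low levels of male-biased genes and high levels of female-biased genes, LP+/+ replicate 1 had the reverse, and LP245/+ lay between. Mup14, a major urinary protein gene, had 14805, 318 and 213 normalized counts in LP+/+ and 1075, 1318 and 1621 in LP245/+. It rose by a log2 fold change of 2.34 in the first series (adjusted p = 0.00909), and its value over all livers was -1.92 (adjusted p = 0.846). Serpina1e, an alpha-1 antitrypsin paralog, had 64092, 9768 and 8040 against 35064, 33422 and 60852 and rose by 2.28 in the first series (adjusted p = 0.0291). Cyp2a22 stood the other way, at 12.6, 907 and 786 against 121, 219 and 113, and fell by 2.48 in the first series (adjusted p = 0.00909).

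Over the 28 male-biased genes tested the median was -0.27 with 3 control livers and 1.26 with the 2 of the first series, where 16 lay above (11.6% of all genes) and 0 below. For the 13 female-biased genes it was -0.24 and -0.50. Moxd1, a male-biased monooxygenase, was at 2223 in LP+/+ replicate 1 and at 0.960 to 4.13 in the other 5 livers. The LPfl/+ livers of the second series had 1438 and 3753 normalized counts of Mup14, between the extremes. Mup genes and the Serpina1 paralogs are near-identical copies whose reads may be split by the counting, so single members are uncertain. Summed over 22 Mup genes the livers had 510923, 288711 and 403039 in LP+/+ and 356086, 347260 and 457501 in LP245/+, and the groups overlapped.

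Cholesterol synthesis genes, the targets of SREBP2, had the same dependence. The median of 25 genes was -0.16 with 21 below 0 over all livers, and 0.41 with 22 above 0 in the first series, where 9 lay above LP+/+ (11.6% of all genes). Sqle, the squalene epoxidase, had 3535, 274 and 198 normalized counts in LP+/+ and 473, 242 and 422 in LP245/+. LP+/+ replicate 1 was the highest of the 6 livers, and the other control livers overlapped LP245/+. The sign of this list's median thus changed with LP+/+ replicate 1.

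**Figure D4:**
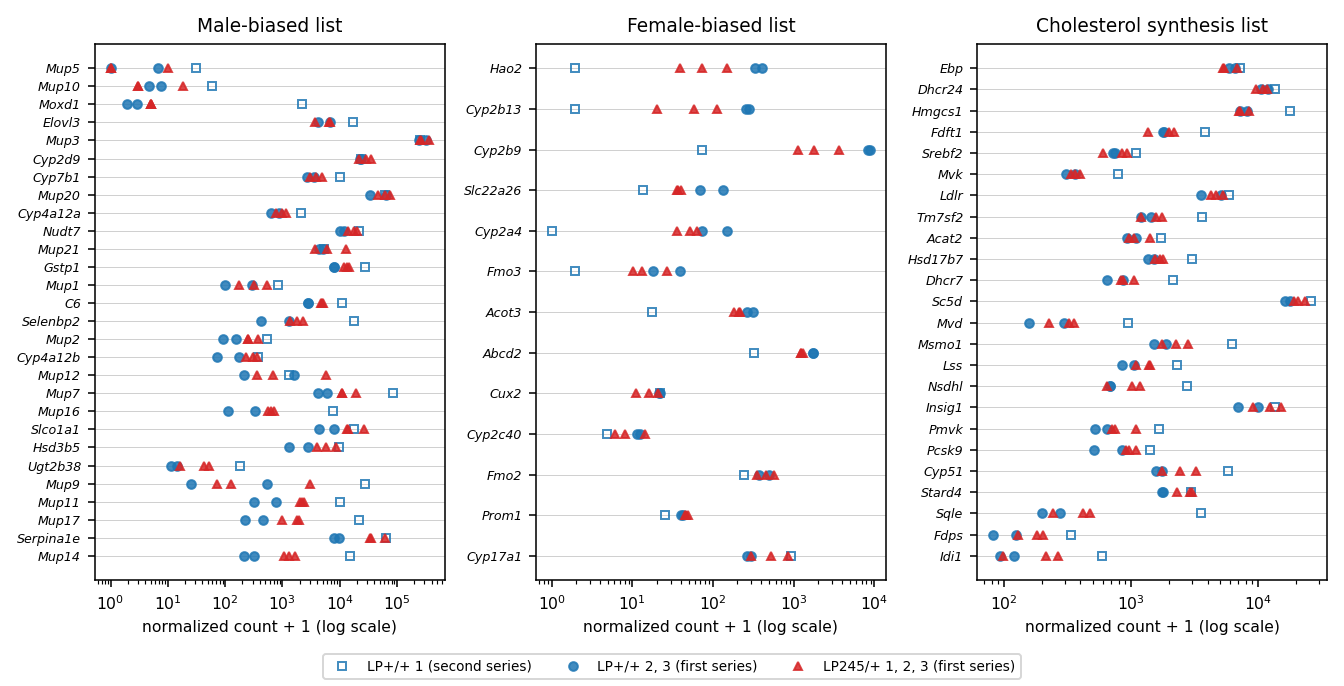
Normalized count plus 1 (log axis) in each liver for genes of the male-biased, female-biased and cholesterol synthesis lists, ordered by the log2 fold change of the first series. LP+/+ replicate 1 (open squares) and LP+/+ replicates 2 and 3 (blue circles) lie at opposite ends for most male-biased and female-biased genes, with LP245/+ (red triangles) between, as for Mup14 at 14805 against 318 and 213.

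Mitochondrial transcripts differed by genome. Of 13 genes of the mitochondrial genome, 11 were above 0, with a median of 0.19 over all livers and 0.28 in the first series. The large ribosomal RNA mt-Rnr2 was at 1013930, 1013150 and 876918 normalized counts in LP+/+ and 1215770, 1163810 and 1880520 in LP245/+, and mt-Co1, a cytochrome oxidase subunit, was above in all 3 livers. Nuclear genes of the respiratory chain were mostly below 0, 60 of 74, with 9 below in all LP245/+ livers (5.79% of all genes) and 1 above (6.03%) and a median of -0.07. LP245/+ replicate 3 had the highest level of this list of the 6 livers, at 0.11, with LP+/+ at -0.02, 0.04 and 0.10 and LP245/+ replicates 1 and 2 at -0.04 and -0.19. Nuclear genes of the mitochondrial ribosome were below 0 in 55 of 76, with 11 below and 2 above and a median of -0.06, and LP245/+ replicate 3 was again the highest liver at 0.09. The differences were small per gene, with Mrpl4 lowest at -0.33 and Ndufa12 at -0.26. Atp5l was the exception above, at 107, 88.4 and 113 against 197, 154 and 167. Cytosolic ribosome genes had a median of -0.01 and 0 of 80 without overlap.

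Values were also summarised by gene length and gene type. Protein-coding genes in the fifth with the shortest exons (up to 2486 bases) had a median log2 fold change of -0.04, and those in the fifth with the longest (from 7627 bases) 0.03. Replicates 1 and 2 of LP245/+ carried this order, and replicate 3 had the opposite one, with 0.07 for the shortest and -0.06 for the longest relative to the 6 livers. Non-coding types were higher as groups: 132 of 765 genes of the TEC class (predicted loci, mostly 1 exon) lay above in all LP245/+ livers (17.3%) and 9 below (1.18%), as did 18 of 78 small nucleolar RNA genes (23.1%) with 0 below, and 68 of 617 antisense genes (11%) with 18 below (2.92%). For protein-coding genes the shares were 4.61% and 6.58%. Antisense values need the strand setting of the counting, which is not given in the sources used here. The nuclear RNA Malat1 was at 67426, 50844 and 53840 against 76882, 63968 and 58596.

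Zinc finger genes shared this direction. After 4 of the top 12 genes above proved to be zinc finger genes, all 316 tested genes with a numbered Zfp symbol were counted. Of these, 231 were above 0, 54 lay above in all LP245/+ livers (17.1%) and 9 below (2.85%), with a median of 0.13 over all livers and 0.11 in the first series. Zfp882 had 94.7, 81.6 and 88.5 normalized counts in LP+/+ and 140, 134 and 154 in LP245/+. The part of gene length, mitochondrial share and RNA quality in these counts was not tested.

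**Figure D5:**
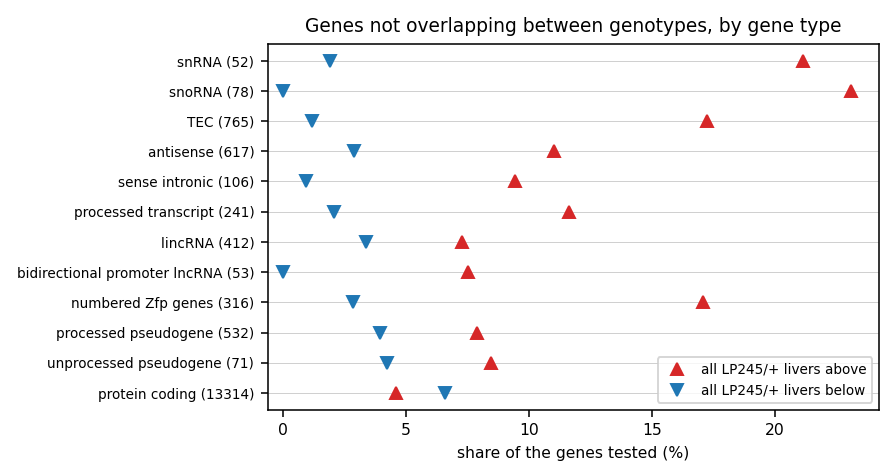
Share of the genes tested (x axis, %) whose LP245/+ livers all lie above (red) or all below (blue) the LP+/+ livers, by gene type and for numbered Zfp genes, with the number of genes tested in brackets. Protein-coding genes stand at 4.61% above and 6.58% below, while snoRNA genes reach 23.1% above and TEC genes 17.3%.

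Some genes were on in some LP245/+ livers and off in others, which a mean per genotype hides. They were named after their values were seen. Cd1d2, an antigen-presenting molecule at chr3:86986551-86989780, had 3.86, 5.76 and 6.59 normalized counts in LP+/+ and 238, 205 and 7.13 in LP245/+. Rps3a3, at chr13:108670603-108671397 inside Pde4d, had 9.66, 14.4 and 4.71 against 875, 717 and 10.2, and Rps3a2 on chromosome 14 had 12.6, 11.5 and 16.0 against 163, 130 and 10.2. In the same livers the parent gene Rps3a1, at chr3:86137940-86142702, was at 2081 and 1688, against 4096 to 4612 in the other 4. Replicates 1 and 2 of LP245/+ thus differed from the other 4 livers, and replicate 3 did not. Reads of these near-identical copies cannot be kept apart with certainty. Their sum was 3120 and 2536 normalized counts in replicates 1 and 2 and 4121 to 4632 in the other livers compared. Cd1d2 and Rps3a3 were among the DESeq2 calls (adjusted p = 0.0305 and 0.0141).

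Replicates 2 and 3 of LP245/+ stood apart at a different place. C1s2, a C1s protease paralog at chr6:124624625-124636085, had 505, 637 and 529 normalized counts in LP+/+ and 370, 2.02 and 2.04 in LP245/+. Its neighbour C1rb, at chr6:124570294-124581171, had 42.5, 34.6 and 16.9 against 10.3, 0 and 1.02 and was called by DESeq2 (adjusted p = 0.0382). The sum of C1s1 and C1s2 was 8716, 11212 and 11213 in LP245/+ and 9915 to 13153 in LP+/+. Emp1 (chr6:135362545-135383173) and Gucy2c (chr6:136697284-136781765) lie on the same chromosome, and for them too replicates 2 and 3 were farther from LP+/+ than replicate 1. The strain background of the livers is not given in the labels, and its part was not tested.

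Of 12 Kupffer cell markers 10 were below 0 and 3 below in all LP245/+ livers, against 5.79% of all genes, with a median of -0.17. Cd163, the haemoglobin scavenger receptor, was at 598, 790 and 619 normalized counts in LP+/+ and 473, 454 and 557 in LP245/+, while Clec4f was at -0.16 and Timd4 at -0.47 with overlap. By the measure of list level used above, this list was at 0.045, 0.218 and 0.063 in LP+/+ and -0.213, 0.034 and -0.072 in LP245/+. The groups did not overlap by that measure, though the gap was narrow. The summed level of this list, to which abundant genes add most, was 590 to 648 CPM (counts scaled to equal library totals) in LP+/+ and 556 to 621 in LP245/+. By the sum the groups overlapped. In a whole-liver sample, fewer cells of a type and less RNA per cell cannot be told apart. Lipid-associated macrophage markers had a median of -0.17 with 0 without overlap (6.03% of all genes lay above and 5.79% below). Trem2, their defining receptor, had at most 45.5 normalized counts.

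Stellate cell and fibroblast markers (median 0.00, 0 of 14 without overlap), sinusoidal endothelial markers (0.01, 0 of 15) and cholangiocyte markers (-0.01, 0 of 10) were level by their medians. Over all genes 6.03% lay above and 5.79% below, so a count of 0 in lists this short says little. Col1a1, the collagen gene of activated stellate cells, was at 176, 304 and 254 normalized counts in LP+/+ and 281, 253 and 103 in LP245/+. The 43 extracellular matrix and EMT genes tested had a median of 0.04 over all livers and -0.03 in the first series. Tpm1, an actin-binding tropomyosin, was the lowest of those with a mean of at least 20 normalized counts, at -0.44. Erythroid markers were below 0 in 7 of 8, and Hba-a1 was at 3202, 2820 and 2458 against 2447, 1220 and 1991, with LP245/+ replicate 2 lowest.

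Dendritic cell markers (median 0.03, 2 above and 1 below of 10, against 6.03% and 5.79% of all genes) and mesothelial markers (0.02, 0 of 6 without overlap) were also level. B and plasma cell markers had a median of -0.03, but the level of the list was uneven between livers. It was -0.20, -0.19 and 0.28 in LP+/+ and -0.15, -0.56 and 0.56 in LP245/+. T and NK cell and neutrophil markers were of low level, many of them near the floor of detection (3 counts in a library). Of 18 T and NK markers 11 passed the filter, with a summed level of 3.95 to 8.88 CPM in LP+/+ and 3.96 to 7.57 in LP245/+. Of 12 neutrophil markers 4 passed, and Ly6g and Mpo had 0 counts in all 6 livers. Of the pancreas, muscle and adipose markers 2 of 14 passed. The level of the oncofetal list overlapped between genotypes, at -0.12, 0.26 and 0.03 in LP+/+ and -0.04, 0.16 and -0.07 in LP245/+. Afp was at 142, 128 and 105 normalized counts against 136, 173 and 118. Igf2, a fetal growth factor on this list named after its values were seen, had 1.93, 3.84 and 3.76 in LP+/+ and 13.4, 13.1 and 11.2 in LP245/+. These are low levels, with an adjusted p of 0.795 in edgeR, and the LPfl/+ livers had 10.1 and 5.05.

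The targeted Trp53 allele lies on chromosome 11 (chr11:69580359-69591873, plus strand). Within 10 Mb on either side, 322 genes were tested, of which 12 lay above in all LP245/+ livers and 21 below, with a median of -0.03 and 0 called. The shares without overlap over all genes were 6.03% and 5.79%. Of 43 p53 targets tested, 12 lay below and 0 above, with a median of -0.16.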

How the data were processed

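Whole-liver total RNA was sequenced from flash-frozen tissue with a stranded kit, and the authors aligned the reads with STAR to GRCm38 and deposited 1 table of raw counts per gene. The STAR version and the strand setting of the counting are not given in the sources used here. All 8 columns were matched to samples by their labels, and 0 were not. Gene symbols were matched for 49326 identifiers, and 259 had none.

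Counts were tested with edgeR 4.0.16 (R 4.3.3): TMM scaling, filterByExpr by genotype, quasi-likelihood F test with all 8 livers in the fit and Benjamini-Hochberg adjustment. The contrast was LP245/+ minus LP+/+, and standard errors were the absolute log2 fold change divided by the square root of F. Calls needed a change of 1 or more in either direction on the log2 scale with adjusted p up to 0.05. The same fit was made within the first library series (5 livers). DESeq2 1.42.0 gave size factors and an alternative test. Per-liver values were counts divided by size factors, and gene lists were summarised by the log2 fold change of the genes tested (1321 of 1417). The fits were tested on simulated data. The members and the 52 gene lists were chosen with earlier results of these data known.

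Genes named were Trp53 and every gene called in either fit, the 12 protein-coding genes of smallest p in each direction with a mean of at least 50 normalized counts and no overlap between genotypes, and, for each list, its first gene and the members with a mean of at least 20 that had the lowest and the highest log2 fold change. Any other gene was chosen after its values were seen. Alternatives were other scalings, filters, tools and sets of livers. Gene types and positions came from a GENCODE annotation of GRCm38. Promoters came from RefSeq (GRCm38.p6). A few genes named by this rule are not reported here.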

Additional observations from a re-analysis of the deposited data

How the results depend on the processing

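The count of 1 gene called over all livers was the same with DESeq2 size factors, with at least 10 counts in every liver and with the 6 livers alone. It was 10 with DESeq2, 20 with no filter on low counts, 7 in the first series alone, 3 with the series as a covariate, and 0 to 5 when 1 liver was left out. It was 0 without LP245/+ replicate 2 and 0 without LP+/+ replicate 3. Within the first series, the 7 genes called became 29 with DESeq2, 113 with no filter and 8 to 19 with 1 liver left out, and these settings were chosen after seeing the data. Genes without overlap numbered 1914 above and 1979 below against the controls of the first series. The log2 fold change of Mup14 reversed to 2.34 with the series as a covariate and in the first series alone, and ranged from -2.49 without LP+/+ replicate 3 to 2.35 without LP+/+ replicate 1. The cause was not tested. Replicate numbers did not pair the livers (correlations of deviations 0.034, 0.022 and -0.066), and a fit with the replicate block called 0 genes, with Cdkn1a at an adjusted p of 0.0596. Of 54 list medians, 13 changed sign in the first series. In simulated data of the main comparison (16365 genes) with log2 changes of 1.5 and 2, 198 of 200 were recovered, with 5 false calls. Every simulated gene had the same spread between livers, the changed genes were among the more abundant, and no difference between library series was built in. The recovery therefore does not say how many such changes would be found in the real livers. Smaller changes were not simulated. Genes under 3 counts in a library were at the floor.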

Other observations

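Slc25a25, a mitochondrial ATP-Mg carrier chosen after its values were seen, had 12395, 4312 and 3207 normalized counts in LP+/+ and 2692, 2386 and 2360 in LP245/+. The LPfl/+ livers, which share the second library series with LP+/+ replicate 1, had 10794 and 8889.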
